A study of Mus musculus with 12 samples.

Results

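The 35 genes described here encode proteins of the lysosome, the acidic organelle in which macrophages break down what they engulf, and the factors that control its genes. They comprise 7 lysosomal membrane proteins, 8 hydrolases of glycans, 6 proteins of lipid breakdown, 4 proteases and proteins linked to neuronal ceroid lipofuscinosis, 3 transcription factors of the MiT/TFE family and 7 subunits of the vacuolar proton pump, the V-ATPase. They were taken by gene symbol from a written list, and all 35 were found in both deposited tables. Those tables list 22896 gene identifiers without TNF and 21437 with TNF. All 35 passed the filter on low values in each of the comparisons below.

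RNA came from mouse bone marrow-derived macrophages, cells that develop in a dish out of marrow precursors. The control genotype, Lyz2cre, carries the Cre recombinase under the gene for lysozyme 2, which is active in myeloid cells. The other genotype, Klf6fl/fl:Lyz2cre, carries the same Cre and in addition floxed alleles of Klf6, a gene for a zinc-finger transcription factor, and is called Klf6-deleted below. Cells of each genotype were left without TNF or received this inflammatory cytokine at 10 ng/ml for 6 h, with 3 libraries in each of the 4 groups. Cre is thus present in every group, and a cell in the culture in which Lyz2 is silent would keep its floxed alleles. Separate mice or cultures are not named in the labels for the replicates, so p-values measure the spread between these libraries, which may be technical.

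A library held 16.9 to 23.4 M reads, and no gene of the 35 had fewer than 347 reads in any library. Klf6 itself was at 6894 to 7405 normalized counts in Klf6-deleted cells and 9984 to 10314 in Lyz2cre cells without TNF, and at 4133 to 4211 and 7155 to 7622 with TNF. Which exons are floxed is not given in the labels, and a value per gene counts all of them. Lyz2, whose gene carries Cre, was at 210.3 to 287 in Klf6-deleted and 837 to 886 in Lyz2cre cells without TNF, and at 809 to 1011 and 1614 to 1705 with TNF. Normalized counts are reads divided by 1 scaling factor per library, set apart for libraries with and without TNF, so they are compared between genotypes and not between those conditions. All 10 of 10 macrophage markers reached 1 CPM (reads scaled so that every library has the same total) in every group, among them Csf1r, the receptor for the growth factor of these cells. In Klf6-deleted cells 8 of these 10 were lower and 2 higher without TNF, and 7 lower and 3 higher with TNF (median log2 difference -0.64 in both). Summed, they took 0.548 to 0.592% of the normalized counts in Klf6-deleted libraries and 1.01 to 1.02% in Lyz2cre libraries without TNF, and 0.905 to 0.914% and 1.02 to 1.03% with TNF. Of 18 stromal markers, 16 could be tested without TNF and all 16 were higher in Klf6-deleted cells, and 12 of 13 were with TNF. Their summed share was 0.388 to 0.410% against 0.0196 to 0.0241% without TNF and 0.0253 to 0.0295% against 0.00359 to 0.00566% with TNF. None of the 18 was at 0 in all libraries of a group, and Lum was below 1 CPM in all 4 groups. Osteoclast markers were mixed, with 3 higher and 2 lower of 7 without TNF and 1 higher and 5 lower of 8 with TNF, and Ocstamp, Calcr and Oscar stayed below 1 CPM. Of 13 monocyte markers, 10 were higher and 3 lower without TNF (median log2 difference 1.83, summed share 0.151 to 0.162% against 0.102 to 0.110%), and 4 were higher and 4 lower with TNF. Endothelial markers were higher in 4 of 5 cases without TNF (0.00935 to 0.0104% against 0.00403 to 0.00456%) and higher in 1 and lower in 2 of 3 with TNF. Of 9 granulocyte markers tested without TNF, 6 were lower and 3 higher (0.0556 to 0.0572% against 0.0648 to 0.0704%), and of 5 with TNF, 2 were lower and 1 higher. Dendritic cell and lymphocyte markers could be tested for 1 gene each. These marker levels differed between the genotypes wherever the gene groups below did, and their part in the results was not tested. In such bulk RNA, fewer cells of a type and less RNA per cell cannot be told apart.

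Lysosomal hydrolases are made in the secretory pathway, sorted to the lysosome and active at low pH. The V-ATPase supplies that pH: its V1 sector hydrolyses ATP in the cytosol and its V0 sector, in the membrane, carries protons inward. The helix-loop-helix factors TFEB, TFE3 and MITF bind a short element with the core CACGTG in the promoters of many lysosomal genes. The kinase complex mTORC1, working at the lysosome surface, keeps TFEB and TFE3 in the cytoplasm when nutrients are plentiful, so their activity is set largely after transcription and is not measured by their RNA.

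Promoter sequences are shown for 5 of the genes because they carry that core in different forms, and the values of these genes are set beside them. RefSeq promoters of GRCm38.p6, which run from 250 bases before to 50 after an annotated start, were found for 29 of the 35 genes (not for Asah1, Atp6v0d2, Atp6v1b2, Atp6v1h, Galns and Npc1). The searched motifs CACGTG and TCACGTGA read the same on both strands, and the longer contains the shorter. CACGTG was present in 9 of 29 genes (31.0%) and in 8.09% of all 27025 genes with such a window. TCACGTGA was present in 4 (13.8%), namely Mcoln1, Gla, Atp6v0d1 and Atp6v1a, and in 1.13% of all genes. A match describes letters in this window and not a site in use. The 5 sequences cover 250 bases before the start and 10 after it, 5′ to 3′ on the strand of the gene, with each match in capitals: Mcoln1 at chr8:3500269-3500528 (plus), Gla at chrX:134600996-134601255 (minus), Atp6v0d1 at chr8:105566055-105566314 (minus), Atp6v1a at chr16:44139250-44139509 (minus) and Lamp1, whose 4 cores lie close together, at chr8:13158911-13159170 (plus).
Mcoln1: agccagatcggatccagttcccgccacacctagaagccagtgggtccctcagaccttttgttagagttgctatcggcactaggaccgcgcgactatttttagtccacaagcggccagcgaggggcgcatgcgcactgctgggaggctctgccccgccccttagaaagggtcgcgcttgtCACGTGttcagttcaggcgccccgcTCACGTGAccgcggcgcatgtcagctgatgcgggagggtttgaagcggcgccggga
Gla: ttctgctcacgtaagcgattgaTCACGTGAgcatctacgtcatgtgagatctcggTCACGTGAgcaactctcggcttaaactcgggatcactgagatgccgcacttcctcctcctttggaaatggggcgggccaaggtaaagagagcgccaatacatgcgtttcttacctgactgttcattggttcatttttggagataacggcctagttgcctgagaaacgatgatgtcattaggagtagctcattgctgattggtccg
Atp6v0d1: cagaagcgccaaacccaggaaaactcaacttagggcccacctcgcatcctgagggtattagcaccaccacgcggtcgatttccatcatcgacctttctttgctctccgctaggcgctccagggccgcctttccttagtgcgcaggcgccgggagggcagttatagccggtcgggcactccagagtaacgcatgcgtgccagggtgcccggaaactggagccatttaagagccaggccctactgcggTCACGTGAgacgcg
Atp6v1a: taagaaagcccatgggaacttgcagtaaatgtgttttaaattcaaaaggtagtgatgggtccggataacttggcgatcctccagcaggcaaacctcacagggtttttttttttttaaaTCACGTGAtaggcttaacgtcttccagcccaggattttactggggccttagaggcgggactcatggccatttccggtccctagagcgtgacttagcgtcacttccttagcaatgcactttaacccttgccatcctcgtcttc
Lamp1: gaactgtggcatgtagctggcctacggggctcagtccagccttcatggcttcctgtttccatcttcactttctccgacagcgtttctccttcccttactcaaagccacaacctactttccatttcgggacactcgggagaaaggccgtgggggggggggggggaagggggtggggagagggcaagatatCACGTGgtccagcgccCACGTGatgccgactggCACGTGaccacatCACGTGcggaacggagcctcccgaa

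The genotype differences of the 5 genes did not share 1 direction. Gla, with 2 copies of TCACGTGA, was higher in Klf6-deleted cells in both conditions (log2 difference 0.66 without TNF and 0.64 with TNF), and Lamp1 was lower in both (-0.58 and -0.43). Mcoln1 went from -0.30 without TNF to 0.57 with TNF, and Atp6v1a from 0.10 to 0.43. Atp6v0d1 was lower without TNF (-0.55) and did not pass the test with it (0.13, or 0.46 and called with libraries scaled to total reads). The change of the genotype difference with TNF was called higher for Lamp1 (0.15), Mcoln1 (0.87), Atp6v0d1 (0.68) and Atp6v1a (0.33). For Gla it was not called (-0.02). Scaled to total reads it was called higher for all 5, from 0.17 for Gla to 1.06 for Mcoln1. Over all genes tested, 24.1% were called higher for this change, or 37.7% scaled to total reads. Over the 9 genes with CACGTG, the median log2 difference was -0.09 without TNF and 0.39 with TNF, and over the 20 matched genes without it, -0.22 and -0.09.

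Without TNF, most of the lysosomal genes were lower in Klf6-deleted cells, and with TNF the list divided. Without TNF, 23 of 35 were lower and 5 higher (limma, adjusted p below 0.05), where 29.3% of the 12715 genes tested were called lower, 27.6% higher and 56.9% either way. The list's median log2 difference was -0.21, beside -0.01 over all genes tested. With TNF, 17 of 35 were higher and 14 lower, where 26.5% of the 11717 genes tested were called higher, 30.8% lower and 57.3% either way, and the median was 0.13, beside -0.01. Calls were thus common in the whole table. The libraries of the 2 genotypes did not overlap for 29 of the 35 genes without TNF, 24 lower and 5 higher, where 32.2% of all genes tested lay apart as lower, 30.1% as higher and 62.3% either way. With TNF they lay apart for 32, 15 lower and 17 higher, where 33.3% of all did so as lower, 29.9% as higher and 63.2% either way. The 35 genes together took 3.41 to 3.48% of normalized counts in Klf6-deleted and 3.71 to 3.82% in Lyz2cre libraries without TNF. With TNF the order was the other way, with 2.60 to 2.62% in Klf6-deleted and 2.06 to 2.09% in Lyz2cre libraries. A large part of these sums came from 1 gene, Psap. It was at 14026 CPM in Klf6-deleted and 14536 in Lyz2cre cells without TNF, and at 10614 and 6073 with TNF. Psap is among the genes of lipid breakdown. Without TNF the summed share of every other gene group was also lower in Klf6-deleted libraries, with no overlap. With TNF the shares of membrane proteins, glycan hydrolases and V-ATPase subunits were higher in Klf6-deleted libraries. The share of the proteases and ceroid lipofuscinosis proteins was lower, and that of the transcription factors overlapped. The sums do not show how many genes moved.

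The scaling of the libraries bears on these counts. Scaled to total reads in place of the deposited factors, the median of all genes went from -0.01 to 0.12 without TNF, from -0.01 to 0.32 with TNF and, for the change of the genotype difference with TNF, from 0.01 to 0.20. The share of calls that were higher went from 48.5 to 68.0%, from 46.2 to 80.4% and from 49.2 to 69.2%. On that scale 18 of the 35 genes were lower and 9 higher without TNF (median -0.08), where 18.9% of all genes tested were lower, 40.3% higher and 59.2% either way. With TNF 6 were lower and 25 higher (median 0.46), where 14.6% of all were lower, 60.1% higher and 74.7% either way. The 5 genes higher without TNF under the deposited scaling became 2 when Klf6-deleted replicate 2 or Lyz2cre replicate 3 was left out, and 3 without replicate 1 of either genotype. Over all alternatives tried, Gla and Atp6v1h stayed higher without TNF in every one, as did 18 of the 23 lower genes lower. With TNF all 17 higher calls stayed, and 6 of the 14 lower calls did: Lamp1, Lamp2, Scarb2, Gm2a, Npc2 and Grn.

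**Figure D1:**
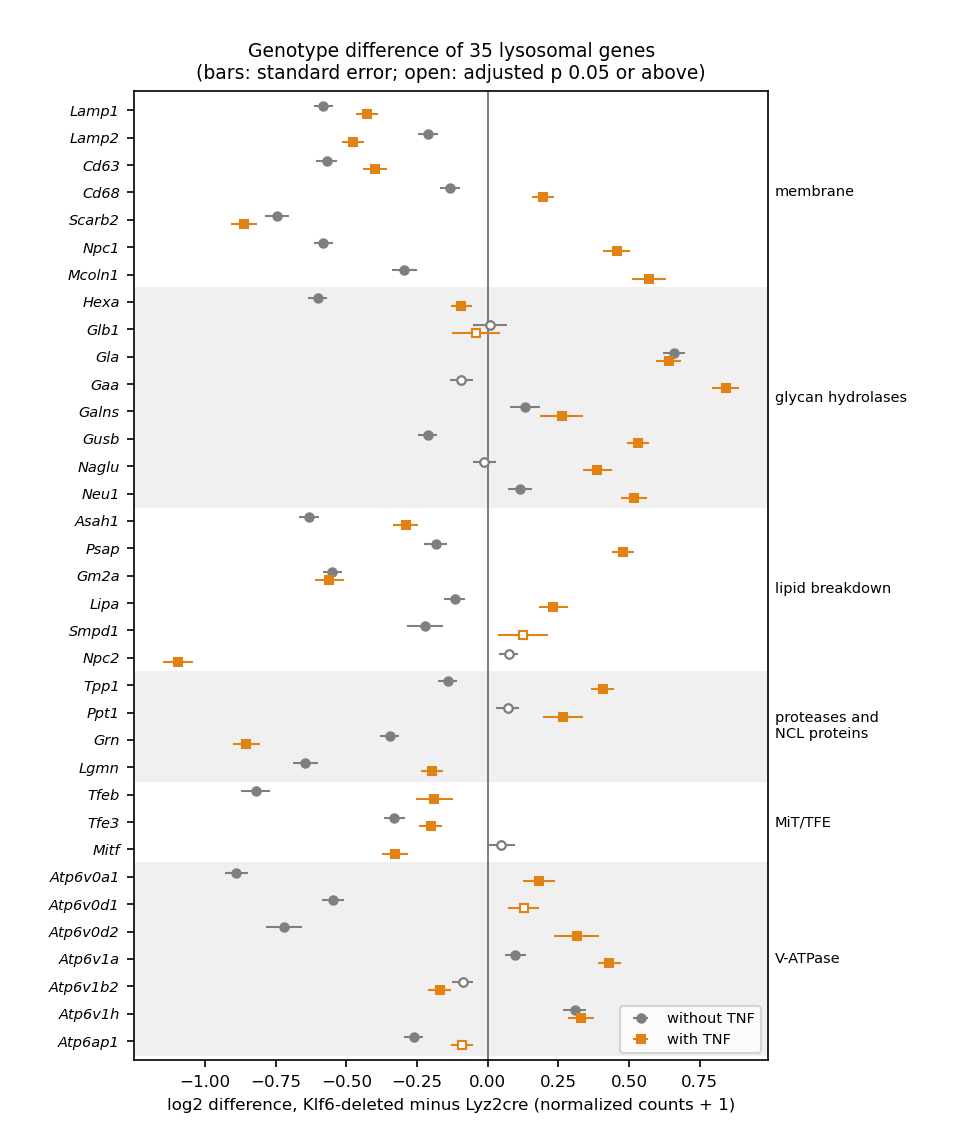
Log2 difference between Klf6-deleted and Lyz2cre libraries (normalized counts + 1) for each of the 35 genes, without TNF (grey circles) and with TNF (orange squares), with the standard error as bars and open symbols where limma's adjusted p was 0.05 or above. Most grey circles lie left of 0, down to -0.89 for Atp6v0a1, while the orange squares spread from -1.10 for Npc2 to 0.84 for Gaa. Squares of Hexa, Glb1, Asah1, Lgmn, Tfeb, Tfe3, Atp6v1b2 and Atp6ap1 lie left of 0 here and right of it when libraries were scaled to total reads.

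Genotype differences changed with TNF for most of the list. In a limma contrast of the 2 genotype differences over all 4 groups, 23 of 35 genes had a higher difference with TNF and 4 a lower one, where 24.1% of the 13062 genes tested were called higher, 24.9% lower and 48.9% either way. The list's median was 0.33 and that of all genes 0.01. Scaled to total reads, 28 were higher and 3 lower, where 37.7% of all genes were higher, 16.8% lower and 54.5% either way. Of the 23, 9 passed the test as lower without TNF and as higher with TNF: Cd68, Npc1, Mcoln1, Gusb, Psap, Lipa, Tpp1, Atp6v0a1 and Atp6v0d2. Scaled to total reads, 5 of these 9 were called in both directions, since the lower calls of Cd68, Psap, Lipa and Tpp1 without TNF were lost. Another 7 were lower in both conditions and less so with TNF (Lamp1, Cd63, Hexa, Asah1, Lgmn, Tfeb and Tfe3), a closeness that scaling to total reads turned into a difference above 0 for Hexa, Asah1, Lgmn, Tfeb and Tfe3. Lamp2 and Grn were lower in both and further apart with TNF. Npc2 and Mitf did not pass without TNF and were lower with it. Scaled to total reads, both were called higher without TNF, and with TNF Npc2 stayed lower and Mitf was not called.

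**Figure D2:**
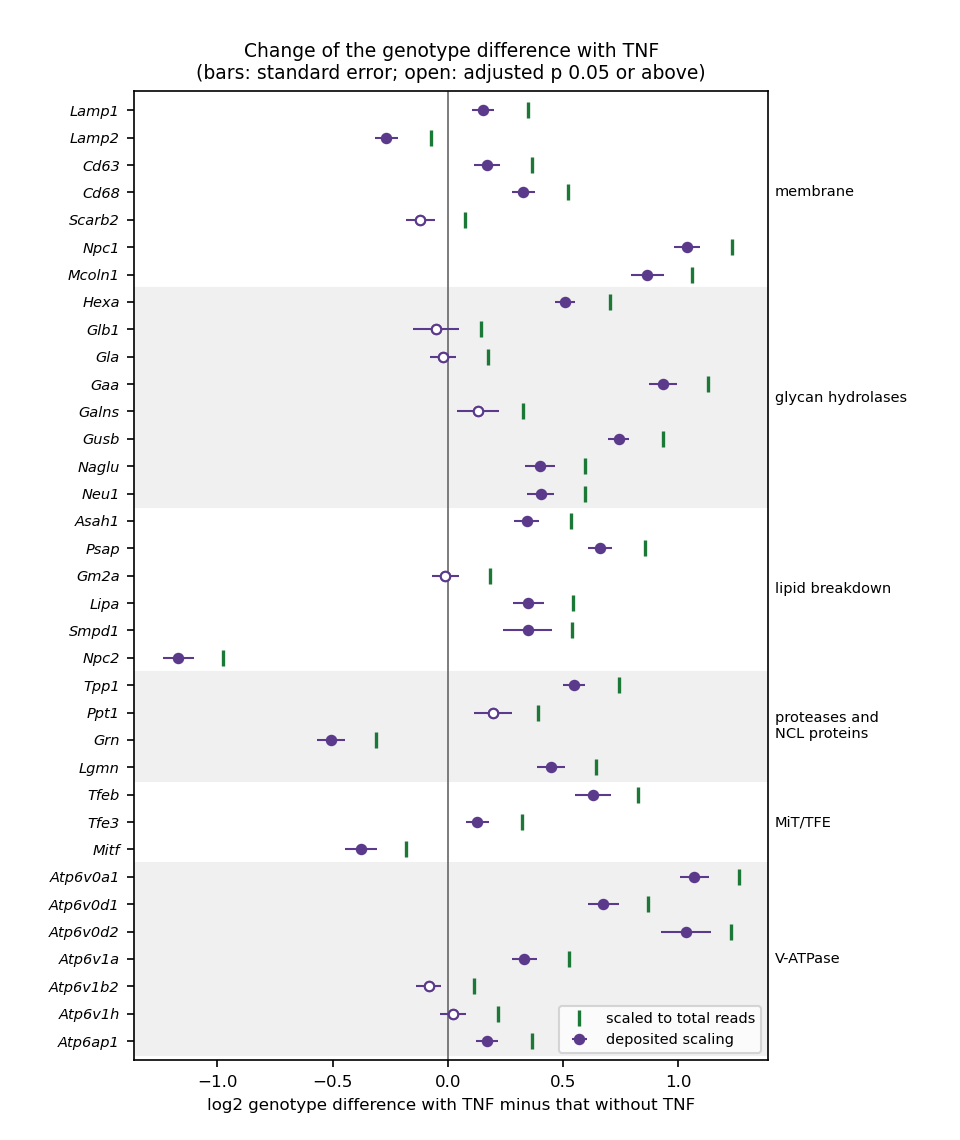
Change of the genotype difference with TNF (difference with TNF minus difference without, log2) for each gene, with the standard error as bars under the deposited scaling (purple, open where limma's adjusted p was 0.05 or above) and the value after scaling to total reads (green ticks). Symbols run from -1.17 for Npc2 to 1.07 for Atp6v0a1, and 4 genes lie below 0 with filled symbols: Lamp2, Npc2, Grn and Mitf.

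Of the 3 transcription factors, 2 were lower in Klf6-deleted cells without TNF and all 3 with TNF, where scaling to total reads left 0 lower and 1, Tfe3, higher. Over all genes tested, 29.3% were called lower without TNF and 30.8% with it. Scaled to total reads, 14.6% of all were lower and 60.1% higher with TNF. Tfeb (ENSMUSG00000023990, plus strand of chromosome 17, 47737030 to 47792419 in GRCm38) encodes the factor for which the lysosomal gene network is best known. Without TNF it was at 995, 1055 and 977 normalized counts in the Klf6-deleted libraries and 1741, 1874 and 1733 in the Lyz2cre libraries. The groups lay far apart, with a log2 difference of -0.82 with a standard error of 0.0508 (limma, adjusted p = 1.3e-10), a 1.77-fold difference. TNF-treated cells held 679.9, 702 and 644 normalized counts in the Klf6-deleted libraries and 779, 757 and 773 in the Lyz2cre libraries, closer together but still without overlap. That difference was -0.19 with a standard error of 0.0656 (limma, adjusted p = 0.0224), and it turned to 0.14 when scaled to total reads. It also missed the threshold by edgeR (adjusted p = 0.0561), by DESeq2 (adjusted p = 0.0759), and by limma without Klf6-deleted replicate 3 (adjusted p = 0.0808) or without Lyz2cre replicate 1 (0.0598) or 3 (0.0589). The change of the difference was 0.63 (limma, adjusted p = 1.2e-06), and it was called under each alternative.

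Tfe3 (ENSMUSG00000000134, plus strand of chromosome X, 7762560 to 7775202), a close relative of Tfeb that shares its binding sites, differed less. It was at 3613, 3420 and 3430 normalized counts in the Klf6-deleted libraries and 4420, 4327 and 4412 in the Lyz2cre libraries without TNF, a 1.26-fold difference (limma, log2 -0.33, standard error 0.0373, adjusted p = 4.4e-07). With TNF the values were 4405, 4401 and 4484 against 5071, 5109 and 5103, again with no overlap, a log2 difference of -0.20 (limma, adjusted p = 4.2e-04) that became 0.13 when scaled to total reads. The change between conditions, 0.13 (limma, adjusted p = 0.0370), missed the threshold by edgeR (adjusted p = 0.166), by DESeq2 (0.117) and when any of 9 single libraries was left out (adjusted p 0.0501 to 0.0866). Scaled to total reads that change was 0.32 and was called (limma, adjusted p = 2.1e-05).

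Mitf (ENSMUSG00000035158, plus strand of chromosome 6, 97807052 to 98021349), the member of the family known from pigment cells and osteoclasts, went another way. Without TNF its groups overlapped, with 2385, 2282 and 2096 normalized counts in the Klf6-deleted libraries and 2249, 2144 and 2142 in the Lyz2cre libraries (log2 0.05, limma, adjusted p = 0.422). With TNF the values were 4646, 4619 and 4967 against 5698, 6234 and 5943, every Klf6-deleted library below every Lyz2cre library, a log2 difference of -0.33 with a standard error of 0.0467 (limma, adjusted p = 1.6e-05). Scaled to total reads, no difference with TNF was called (limma, adjusted p = 0.983). On that scale Mitf was instead called higher without TNF, by 0.18 (limma, adjusted p = 0.0043). Its difference fell by 0.38 on the log2 scale between the conditions (limma, adjusted p = 1.5e-04). It was the only 1 of the 3 factors whose change was below 0.

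All 7 membrane proteins were lower without TNF, where 29.3% of all genes tested were. Their log2 differences ran from -0.74 to -0.13, with a median of -0.57. With TNF 4 were lower and 3 higher (30.8% and 26.5% of all genes), with a median of -0.40, or -0.07 scaled to total reads. Scarb2 (ENSMUSG00000029426, minus strand of chromosome 5, 92441314 to 92506833), which carries glucocerebrosidase to the lysosome, stood lowest of them in both conditions. It was at 3219, 3065 and 3399 normalized counts in the Klf6-deleted libraries and 5242, 5620 and 5355 in the Lyz2cre libraries without TNF and at 2120, 2141 and 2024 against 3848, 3733 and 3848 with TNF. Neither pair of groups overlapped, and Klf6-deleted cells were 1.68-fold lower without TNF (limma, log2 -0.74, standard error 0.0427, adjusted p = 4.2e-11) and 1.82-fold lower with it (limma, log2 -0.86, standard error 0.0455, adjusted p = 9.0e-11). The change between conditions, -0.12 or, scaled to total reads, 0.08, did not pass (limma, adjusted p = 0.120), though it did without the untreated Klf6-deleted replicate 2 (adjusted p = 0.0493).

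Npc1 moves cholesterol out through the lysosomal membrane, and its genotype difference turned. It was at 6183, 6195 and 6291 normalized counts in the Klf6-deleted libraries and 9176, 9223 and 9555 in the Lyz2cre libraries without TNF, lower in every Klf6-deleted library. With TNF it was at 4809, 4800 and 5061 against 3452, 3765 and 3478, 1.37-fold higher, and neither pair of groups overlapped. The log2 differences were -0.58 (limma, adjusted p = 4.5e-11) and 0.46 (limma, adjusted p = 4.0e-07), and the change was 1.04 with a standard error of 0.0554 (limma, adjusted p = 5.8e-12). Mcoln1, encoding a calcium-permeable channel of the lysosome, likewise turned, from 1845 ± 69.6 against 2264 ± 57.8 to 1746 ± 72.1 against 1176 ± 67.9 (means ± SD, n = 3 per group), a change of 0.87 (limma, adjusted p = 5.1e-09).

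The abundant coat proteins of the membrane behaved otherwise. Lamp1 was lower by a log2 difference of -0.58 without TNF and -0.43 with it, and Cd63, a tetraspanin of late endosomes, by -0.57 and -0.40. Scaled to total reads, the difference with TNF shrank to -0.10 for Lamp1, still called, and to -0.07 for Cd63, no longer called. The change between conditions was 0.15 for Lamp1 (limma, adjusted p = 0.0119) and 0.17 for Cd63 (limma, adjusted p = 0.0179). Scaled to total reads it was 0.35 and 0.37 (limma, adjusted p = 2.4e-06 and 1.9e-05). Under the deposited scaling the change of Cd63 missed the threshold without the untreated Lyz2cre replicate 2 (limma, adjusted p = 0.0576) and without the TNF-treated Klf6-deleted replicate 1 (0.0553). It also missed it by edgeR (adjusted p = 0.0609). Lamp2 went from -0.21 to -0.48, a fall that was not called when scaled to total reads (limma, adjusted p = 0.206). Cd68, a heavily glycosylated protein used as a macrophage marker, was -0.13 without TNF under the deposited scaling and not called scaled to total reads (limma, adjusted p = 0.990), and 0.20 with TNF. Lamp1 shares 9.31% of its exon length with Grtp1 on the opposite strand, and whether counting used the strand is not given.

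The glycan hydrolases were split without TNF and mostly higher with it. Without TNF 3 of 8 were higher and 2 lower, near the 27.6% and 29.3% of all genes tested. Differences ran from -0.60 for Hexa, the alpha chain of beta-hexosaminidase, to 0.66 for Gla. With TNF 6 were higher and 1, Hexa, lower, where 26.5% of all genes were higher and 30.8% lower. Scaled to total reads all 8 were higher with TNF, where 60.1% of all genes were. The median of the 8 with TNF was 0.45, or 0.78 scaled to total reads.

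Gla (ENSMUSG00000031266, minus strand of chromosome X, 134588149 to 134601125) encodes alpha-galactosidase A, which clears globosides, and it had the largest higher difference of the list without TNF. Its values were 6904, 7146 and 6791 normalized counts in the Klf6-deleted libraries and 4266, 4636 and 4298 in the Lyz2cre libraries without TNF and 4771, 4885 and 4821 against 3114, 2981 and 3198 with TNF. No library of one genotype reached into the other, and Klf6-deleted cells were higher by folds of 1.58 (limma, log2 0.66, standard error 0.0393, adjusted p = 7.4e-11) and 1.56 (limma, log2 0.64, standard error 0.0437, adjusted p = 2.5e-09). The change between conditions was -0.02 with a standard error of 0.0573 (limma, adjusted p = 0.795). When scaled to total reads it was 0.17 and was called (limma, adjusted p = 0.0104).

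Gaa (ENSMUSG00000025579, plus strand of chromosome 11, 119267887 to 119285454) encodes acid alpha-glucosidase, which breaks down glycogen, and it had the largest difference of the 8 with TNF. Without TNF it was at 3779, 3876 and 4061 normalized counts in the Klf6-deleted libraries and 4064, 4332 and 4106 in the Lyz2cre libraries, a difference of -0.09 (0.04 scaled to total reads) that did not pass (limma, adjusted p = 0.0549) but did without the Klf6-deleted replicate 3 (adjusted p = 0.0152). TNF-treated cells held 2751, 2831 and 2891 against 1532, 1575 and 1620, 1.79-fold higher with no overlap (limma, log2 0.84, standard error 0.0484, adjusted p = 2.8e-10). The change was 0.94 with a standard error of 0.0595 (limma, adjusted p = 8.5e-11).

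The other glycan hydrolases differed among themselves. Gusb, beta-glucuronidase, turned from 12785 ± 241 against 14805 ± 336 without TNF to 7471 ± 58.3 against 5172 ± 75.0 with TNF (n = 3 per group), a change of 0.74 (limma, adjusted p = 5.7e-11). Naglu, an enzyme of heparan sulfate breakdown, did not pass without TNF, where its sign turned from -0.01 to 0.12 with the scaling, and was 1.31-fold higher with TNF. Neu1, a sialidase, was 1.08-fold and 1.43-fold higher, and Galns, a sulfatase of keratan sulfate, 1.10-fold and 1.20-fold. The small differences of these 2 without TNF were not called when single libraries were left out (Klf6-deleted replicate 2 or Lyz2cre replicate 3 for both, Klf6-deleted replicate 3 for Neu1, and replicate 1 of either genotype for Galns). Hexa was 1.52-fold lower without TNF. With TNF its difference of -0.09 (limma, adjusted p = 0.0435) was not called by edgeR (0.221), by DESeq2 (0.138) or without any single library other than Lyz2cre replicate 2 (0.0678 to 0.139), and it was 0.23 scaled to total reads. Hexa shares 12.8% of its exon length with Tmem202 on the opposite strand. Glb1, beta-galactosidase, overlapped between genotypes in both conditions, at 698 ± 30.2 against 694 ± 21.9 and 417 ± 7.25 against 429.7 ± 35.6, and its difference with TNF was -0.04 under the deposited scaling and 0.29 scaled to total reads.

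Genes of lipid breakdown were lower without TNF in 5 of 6 cases (29.3% of all genes tested). With TNF these 6 genes divided, with 2 higher and 3 lower (26.5% and 30.8% of all). Their median was -0.20 without TNF and -0.08 with TNF, or 0.24 scaled to total reads. Asah1, the acid ceramidase gene, differed most without TNF, at 7570, 7858 and 7831 normalized counts in the Klf6-deleted libraries and 11777, 12327 and 11938 in the Lyz2cre libraries. Those groups were 1.55-fold apart with no overlap (limma, log2 -0.63, standard error 0.0339, adjusted p = 1.7e-11). With TNF the values were 4486, 4413 and 4353 against 5152, 5610 and 5445, a difference of -0.29 under the deposited scaling and 0.04 scaled to total reads.

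Npc2 (ENSMUSG00000021242, minus strand of chromosome 12, 84754562 to 84773152), the soluble carrier that hands cholesterol to NPC1, had the largest difference of all 35 genes. Without TNF it was at 22933, 22778 and 22678 normalized counts in the Klf6-deleted libraries and 21294, 22324 and 21377 in the Lyz2cre libraries, a difference of 0.07 that did not pass in limma (adjusted p = 0.0640) and passed by edgeR (0.0243), by DESeq2 (0.0209) and without the Lyz2cre replicate 2 (0.0271). Those groups did not overlap, and scaled to total reads the difference was 0.21 and was called (limma, adjusted p = 1.4e-05). With TNF Npc2 was at 20609, 20408 and 19023 against 45368, 39103 and 44006. The lowest Lyz2cre library lay well above the highest Klf6-deleted library, and Klf6-deleted cells were 2.14-fold lower (limma, log2 -1.10, standard error 0.0524, adjusted p = 2.7e-11). It was the only 1 of the 35 genes both called and at least 2-fold different with TNF, where 15.1% of all genes were. Its difference fell by 1.17 on the log2 scale between conditions (limma, standard error 0.0658, adjusted p = 1.3e-11), opposite in sign to that of Npc1, its partner in the same step.

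Psap, the precursor of the saposins that help sphingolipid hydrolases, was the most abundant of the 35 per length in all 4 groups. In CPM per kilobase of exon it stood at 5112 in Klf6-deleted and 5297 in Lyz2cre cells without TNF, and at 3868 and 2213 with TNF. In normalized counts it was at 265811 ± 5298 against 302089 ± 8468 without TNF and at 174546 ± 574 against 125313 ± 1774 with TNF (n = 3 per group), log2 differences of -0.18 and 0.48, the first of them not called when scaled to total reads (-0.05). Lipa, the acid lipase that frees cholesterol from its esters, turned likewise, from -0.12 to 0.23, though its difference without TNF was 0.02 scaled to total reads. Gm2a, the activator of ganglioside breakdown, was lower in both conditions, 1.46-fold and 1.47-fold, with a change between them of -0.01 under the deposited scaling and 0.18 scaled to total reads. Smpd1, the acid sphingomyelinase gene, was among the least abundant per length, with 10.9 CPM per kilobase in Lyz2cre cells without TNF. It was at 648 ± 44.6 against 756 ± 9.15 normalized counts without TNF (limma, log2 -0.22, adjusted p = 0.00575, not called scaled to total reads). With TNF its groups overlapped, and scaled to total reads it was called higher, by 0.45 (limma, adjusted p = 2.4e-04).

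Of the 4 proteases and proteins linked to neuronal ceroid lipofuscinosis, 3 were lower without TNF (29.3% of all genes tested). With TNF 2 were higher and 2 lower (26.5% and 30.8% of all). The medians of these 4 were -0.24 without TNF and 0.04 with TNF. Lgmn, the asparagine-specific protease legumain, differed most without TNF, at 32881, 31782 and 36566 normalized counts in the Klf6-deleted libraries and 51926, 53042 and 53015 in the Lyz2cre libraries, 1.56-fold apart with no overlap (limma, log2 -0.64, standard error 0.0434, adjusted p = 4.0e-10). With TNF it was at 10266, 10573 and 10053 against 11667, 11606 and 12107, a difference of -0.20 that turned to 0.13 scaled to total reads. Grn (ENSMUSG00000034708, plus strand of chromosome 11, 102430315 to 102437048), the gene of the secreted and lysosomal protein progranulin, differed more with TNF than without. Its values were 43730, 43525 and 45658 normalized counts in the Klf6-deleted libraries and 55465, 57129 and 56370 in the Lyz2cre libraries without TNF and 27634, 28748 and 28722 against 51877, 47487 and 54619 with TNF. Both pairs of groups were separate, 1.27-fold apart (limma, log2 -0.35, standard error 0.0342, adjusted p = 7.6e-08) and 1.81-fold apart (limma, log2 -0.85, standard error 0.0480, adjusted p = 2.1e-10), and the difference fell by 0.51 on the log2 scale between them (limma, adjusted p = 8.8e-07).

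Tpp1, a tripeptidyl peptidase, changed sides. It was at 7808, 7576 and 7724 normalized counts in the Klf6-deleted libraries and 8645, 8484 and 8366 in the Lyz2cre libraries without TNF and at 5694, 5717 and 5860 against 4314, 4318 and 4395 with TNF, below the Lyz2cre libraries in the first case and above them in the second. The change was 0.55 with a standard error of 0.0464 (limma, adjusted p = 6.1e-09), while the difference without TNF, -0.14, was -0.01 and not called when scaled to total reads. Ppt1, which removes palmitate from proteins, overlapped without TNF and was 1.20-fold higher with it (limma, adjusted p = 0.00412). Its change, 0.20, did not pass (limma, adjusted p = 0.0555), and it did without each of 4 single libraries (adjusted p 0.0153 to 0.0389). Scaled to total reads that change was 0.39 and was called (limma, adjusted p = 5.5e-04).

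Subunits of the V-ATPase did not move together. Without TNF 4 of 7 were lower and 2 higher, where 29.3% of all genes tested were lower and 27.6% higher. With TNF 1 was lower and 4 higher, where 30.8% of all were lower and 26.5% higher. Scaled to total reads, 7 of 7 were higher with TNF, where 60.1% of all were. The median of the 7 was -0.26 without TNF and 0.18 with TNF. The 3 V0 subunits and the accessory subunit Atp6ap1 were the lower ones without TNF, and the V1 subunits Atp6v1a and Atp6v1h the higher ones. Other subunits followed this division only in part. The V0 genes Atp6v0b (-0.40), Atp6v0c (-0.40) and Tcirg1 (-0.22) were lower without TNF too. For the V1 gene Atp6v1c1, every Klf6-deleted library lay above every Lyz2cre library. Against the division, the V1 genes Atp6v1f (-0.15), Atp6v1g1 (-0.11, or 0.02 scaled to total reads) and Atp6v1g2 (-0.53) were lower without TNF. The V0 gene Atp6v0a2 (0.13) was higher. All of these other subunits were named after their values were seen. Atp6v0a1 (ENSMUSG00000019302, plus strand of chromosome 11, 101009452 to 101063719), an isoform of the a subunit that lines the proton path, had the largest difference of the 35 genes without TNF. It was at 6319, 6912 and 6141 normalized counts in the Klf6-deleted libraries and 11793, 12104 and 11960 in the Lyz2cre libraries, 1.85-fold apart (limma, log2 -0.89, standard error 0.0405, adjusted p = 1.7e-12). With TNF it was at 1274, 1264 and 1316 against 1097, 1124 and 1179, now slightly higher in every Klf6-deleted library (limma, log2 0.18, standard error 0.0557, adjusted p = 0.0112). The change of 1.07 had a standard error of 0.0632 (limma, adjusted p = 2.7e-11).

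Atp6v1a encodes the catalytic A subunit. Its groups overlapped without TNF, with 22040, 21738 and 20605 normalized counts in the Klf6-deleted libraries and 19144, 20896 and 20125 in the Lyz2cre libraries, a difference of 0.10 (limma, adjusted p = 0.0366) that was not called without replicate 1 of either genotype, Klf6-deleted replicate 2 or Lyz2cre replicate 3 (adjusted p 0.0895 to 0.216). With TNF the values were 13083, 12980 and 13027 against 9402, 10012 and 9592, 1.35-fold apart with no overlap (limma, log2 0.43, standard error 0.0391, adjusted p = 8.7e-08). Atp6v1h, a regulatory V1 subunit, was higher in both conditions, 0.31 and 0.33, and its change of 0.02 with a standard error of 0.0555 did not pass (limma, adjusted p = 0.758). Scaled to total reads that change was 0.22 and was called (limma, adjusted p = 0.0044). Atp6v1b2, the B subunit that pairs with A, did not pass without TNF (-0.09, or 0.05 scaled to total reads) and was -0.17 with it, or 0.16 scaled to total reads. Atp6ap1 was -0.26 without TNF and did not pass with it (-0.09, or 0.24 scaled to total reads, where it passed).

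The d subunit of the V0 stalk comes in 2 isoforms, d1, found in most cells, and d2, known from osteoclasts and macrophages. Both were lower in Klf6-deleted cells without TNF, Atp6v0d1 at 2633 ± 66.8 against 3849 ± 101 and Atp6v0d2 at 2544 ± 287 against 4179 ± 268 (n = 3 per group). With TNF, Atp6v0d2 was 1.24-fold higher (limma, adjusted p = 0.00331) and Atp6v0d1 did not pass (limma, adjusted p = 0.0586, or 0.0281 without Lyz2cre replicate 3). Scaled to total reads, Atp6v0d1 was called higher with TNF, by 0.46 (limma, adjusted p = 1.4e-06). The share of d2 among both, per exon length, was 39.5, 41.4 and 35.8% in Klf6-deleted and 41.3, 42.8 and 41.1% in Lyz2cre libraries without TNF. With TNF it was 16.8, 17.5 and 15.6% against 15.9, 15.9 and 13.1%. The genotypes overlapped in both conditions, and the difference in share was -2.84 percentage points without TNF and 1.68 with it (two-sided exact permutation test, p = 0.3 each, where 0.1 is the smallest that 3 against 3 can give).

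**Figure D3:**
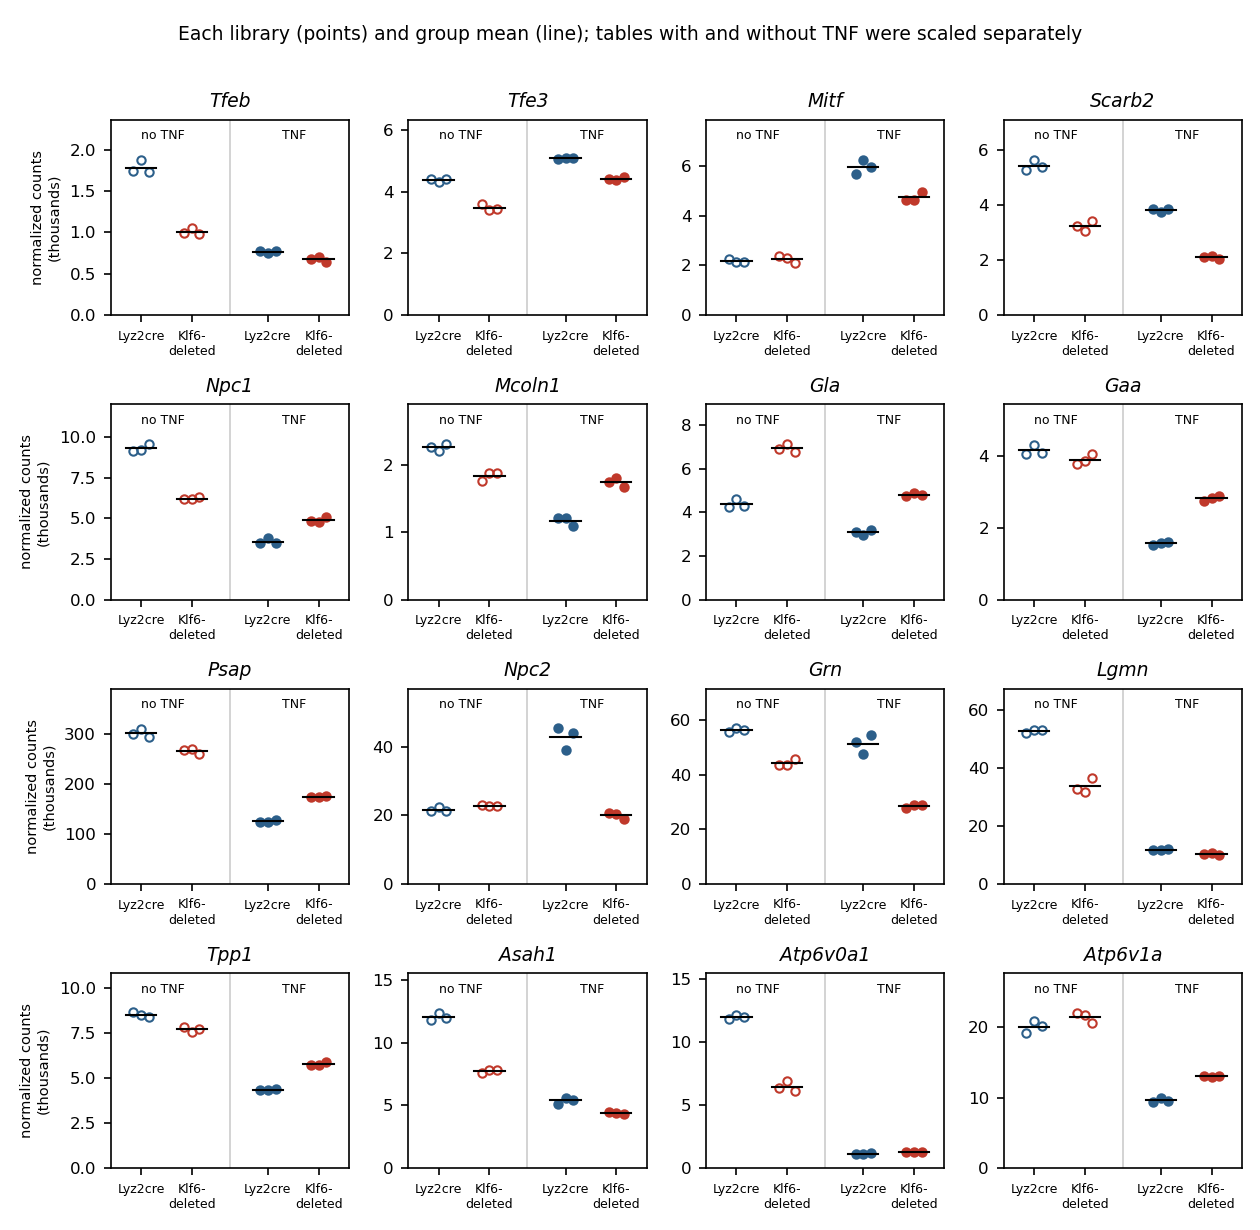
Normalized counts in each library (points) with the group mean (line) for 16 of the genes, Lyz2cre in blue and Klf6-deleted in red, without TNF (open) and with TNF (filled). Npc1, Mcoln1, Psap, Tpp1 and Atp6v0a1 lie lower in red without TNF and higher in red with it, Gla lies higher in both, and the libraries with and without TNF were scaled separately, so their heights are not compared.

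Between conditions only a description is possible, since the tables were normalized separately. Taken as CPM, 31 of the 35 genes were at a lower level with TNF than without in Lyz2cre cells, 14 of them by at least 2-fold, with a median log2 ratio of -0.90, beside -0.34 over all genes. In Klf6-deleted cells 27 were lower, 4 by at least 2-fold, with a median of -0.42, beside -0.09. Of 12981 genes in Lyz2cre cells, 8633 were lower, 3515 by at least 2-fold. Of 13053 in Klf6-deleted cells, 7402 were, 2360 by at least 2-fold. With scaling factors computed over all 12 libraries, 27 of the 35 were lower in Lyz2cre cells, 7 of them by at least 2-fold, with a median of -0.61, and 26 in Klf6-deleted cells, 4 by at least 2-fold, with a median of -0.35. Over all genes on that scale, 6800 were lower in Lyz2cre cells, 2737 by at least 2-fold (median -0.05). In Klf6-deleted cells 6748 of all were, 2237 by at least 2-fold (median -0.02). No test was made of these ratios.

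A pair of V0 genes had the largest ratios. In Lyz2cre cells Atp6v0a1 was 10.5-fold lower with TNF and Atp6v0d2 7.63-fold, and in Klf6-deleted cells 4.36-fold and 3.27-fold. Lgmn was 4.43-fold lower in Lyz2cre and 2.84-fold lower in Klf6-deleted cells. Tfeb was 2.30-fold and 1.30-fold lower, and Npc1 2.59-fold and 1.10-fold. Mitf stood out in the other direction, 2.76-fold higher with TNF in Lyz2cre and 2.43-fold higher in Klf6-deleted cells. Npc2 was 1.99-fold higher with TNF in Lyz2cre cells and at a log2 ratio of 0.02 in Klf6-deleted cells.

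**Figure D4:**
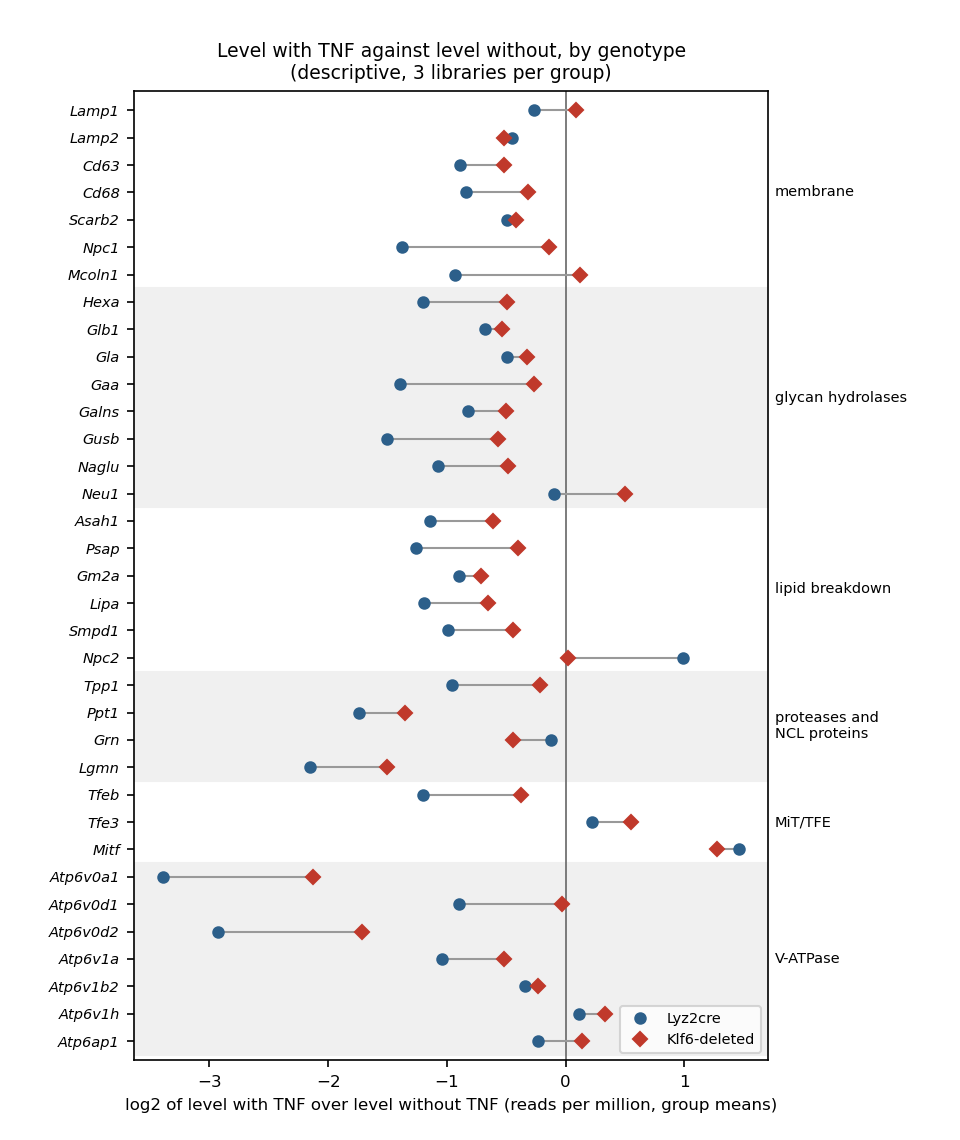
Log2 of the mean level with TNF over the mean level without TNF, in CPM over 3 libraries per group, for Lyz2cre (blue circles) and Klf6-deleted cells (red diamonds) and each of the 35 genes, joined by a line. Most points lie left of 0, down to -3.39 for Atp6v0a1 in Lyz2cre cells, and for Npc2, Grn, Lamp2 and Mitf the red diamond lies left of the blue circle.

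Other genes of the pathway were taken from written lists, and their medians are set beside those of all genes tested (-0.01 without TNF, -0.01 with TNF and 0.01 for the change). Over all genes, 29.3% were called lower and 27.6% higher without TNF, 30.8% and 26.5% with TNF, and 24.9% and 24.1% for the change. Scaled to total reads these shares were 18.9% and 40.3%, 14.6% and 60.1%, and 16.8% and 37.7%. Of 26 other hydrolases and cofactors, 15 were lower and 4 higher without TNF, 9 lower and 8 higher with TNF, and the difference rose between conditions for 13 and fell for 4 (medians -0.42, -0.01 and 0.20). Scaled to total reads, 14 were lower and 5 higher without TNF and 6 lower and 17 higher with TNF, and the difference rose for 17 and fell for 2 (medians -0.29, 0.32 and 0.39). Sgsh, a sulfatase of heparan sulfate, went from -0.44 to 1.91 (limma, change 2.36, standard error 0.178, adjusted p = 1.2e-09). Galc, which cleaves galactosylceramide, went from -0.90 to 0.24, and Dnase2a, the acid nuclease, from -0.18 (not called scaled to total reads) to 0.83. Hgsnat, the acetyltransferase of heparan sulfate breakdown, was -1.19 without TNF and did not pass with it (-0.12, or 0.21 and called scaled to total reads). Ids, another heparan sulfate enzyme, was lower in both conditions, with -1.24 under TNF, while Arsb, a sulfatase of dermatan sulfate, was higher in both (1.30 and 1.03).

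Of 27 other membrane and sorting genes, 16 were lower and 6 higher without TNF, 15 lower and 9 higher with TNF, and the difference rose for 12 and fell for 9 (medians -0.18, -0.21 and 0.14). With TNF the balance turned when scaled to total reads, to 7 lower and 14 higher (median 0.12), with 12 lower and 9 higher without TNF (median -0.05) and 16 rising and 7 falling between conditions. Sort1, the sorting receptor sortilin, went from -0.29 to 1.58, the cystine exporter Ctns from -0.54 to 0.52 and the metal transporter Slc11a1 from -0.53 to 0.46. A pair of genes of the mannose 6-phosphate route differed the other way. Gnptab, whose product adds that tag to hydrolases, was 0.51 without TNF and -0.50 with it (limma, change -1.01, adjusted p = 3.2e-11), and Igf2r, a receptor for the tag, 0.09 and -0.66 (limma, change -0.75, adjusted p = 3.5e-09). Ap3b1, of the adaptor that sorts membrane proteins to lysosomes, was lower in both, -0.24 and -0.80.

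Of 19 further V-ATPase subunits and assembly factors, 15 could be tested. Without TNF 10 were lower and 2 higher, with TNF 5 were lower and 6 higher, and the difference rose for 7 and fell for 4 (medians -0.16, 0.05 and 0.16). Total-read scaling gave 7 lower and 5 higher without TNF (median -0.02), 2 lower and 11 higher with TNF (median 0.38), and 11 rising and 3 falling. The other a subunit isoforms did not follow Atp6v0a1: Atp6v0a2 went from 0.13 to -0.63 and Tcirg1, the a3 isoform, from -0.22 to -0.60. The changes between conditions were -0.76 and -0.39 (limma, adjusted p = 9.1e-08 and 2.1e-05), against 1.07 for Atp6v0a1. Dmxl2, an assembly factor, went from -0.72 to 0.48, and the proton-binding ring subunit Atp6v0c from -0.40 to 0.14.

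Among 22 genes that control TFEB at the lysosome, 10 were lower and 4 higher without TNF, and with TNF 7 were lower and 8 higher of 21 tested, and the difference rose for 9 and fell for 5 (medians -0.08, 0.02 and 0.07). Total-read scaling gave 6 lower and 5 higher without TNF (median 0.05), 2 lower and 14 higher with TNF (median 0.34), and 12 rising and 1 falling. Flcn, whose product folliculin steers TFEB phosphorylation by mTORC1, went from -0.64 (standard error 0.0435) to 0.91 (standard error 0.0696), a change of 1.55 (limma, adjusted p = 9.0e-12). The Rag GTPase gene Rragd, through which folliculin acts, went from -0.44 to 1.57 (limma, change 2.01, adjusted p = 6.1e-07). Fnip2, a partner of folliculin, was higher in both, 0.14 and 0.92. Tfec, the fourth MiT/TFE gene, was lower in both, -0.81 and -0.93, as was the amino acid sensor Slc38a9 (-0.61 and -0.67).

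Autophagy delivers the cell's own contents to lysosomes. Of 26 of its genes, 17 were lower and 4 higher without TNF, 5 lower and 15 higher with TNF, and the difference rose between conditions for 17 and fell for 1 (medians -0.19, 0.15 and 0.32). Total-read scaling gave 10 lower and 4 higher without TNF (median -0.06), 0 lower and 21 higher with TNF (median 0.48), and 19 rising and 0 falling. Gabarapl1, of the family that coats autophagosomes, went from -0.38 to 0.87, the initiating kinase gene Ulk1 from -0.58 to 0.42 and Map1lc3b from -0.42 to 0.29. Tecpr1, which tethers autophagosomes to lysosomes, was -0.88 without TNF and 0.15 with it. Sqstm1, the cargo receptor p62, was higher in both (0.10 and 0.49), and Rubcn, a negative regulator of fusion, -0.65 without TNF and -0.27 with TNF, where scaling to total reads gave 0.06.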

How the data were processed

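RNA-seq libraries of 3 samples in each of 4 groups were made from total RNA with a stranded kit after removal of ribosomal RNA, per the labels' protocols. Per the submitters' processing notes, Cufflinks, GRCm39 and mm10 were used. Which aligner, counter and annotation were used, and whether strand was, is not given in the sources used here. The deposited values are a signal per gene, in 1 table without and 1 with TNF. Within each table they are whole multiples of a step per library (within 0.001 reads), and that step is the inverse of a median-of-ratios scaling factor recomputed from the recovered reads. They are called normalized counts here. The automatic check of whole reads did not accept 2 of the 12 columns, whose step lies near 1.

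Genes at 1 CPM or more in at least 3 libraries were tested on log2(value + 1) with limma 3.58.1 in R 4.3.3, with a trend for the spread and Benjamini-Hochberg adjustment over all genes tested. A call means an adjusted p below 0.05, and a fold is on that log2 scale. The 2 tables were tested apart. The change of the genotype difference used all 12 libraries and the genes of both tables, and since each genotype difference is taken within a table, a factor common to a table cancels. Levels with and without TNF were compared as CPM without a test, and levels of different genes per kilobase of exon (GENCODE vM21). Alternatives were edgeR 4.0.16 and DESeq2 1.42.0 on the recovered reads, total-read scaling on log2(CPM + 0.05), a pseudocount of 10, no filter or 5 CPM, a replicate block, and each library left out. The fits were tested on simulated data. Symbols were found for 22867 of 22896 and 21411 of 21437 identifiers, and coordinates are those of GRCm38. The genes and lists were chosen with earlier results of these data known. Values in every library are given for the 3 MiT/TFE factors and, by role, for the called gene furthest from 0 in each comparison. The other pathway genes named were taken from the up to 4 called genes furthest from 0 in a comparison in each list. Exceptions were V-ATPase subunits set beside the division of V0 and V1, named after their values were seen.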

Additional observations from a re-analysis of the deposited data

Results flagged for a closer look

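The genotype differences without and with TNF were set against each other by limma over the 4 groups. Of the 35 genes, 27 had an adjusted p below 0.05 for the difference between them, where 48.9% of the 13062 genes tested did. This test picked out the following genes. With 3 libraries in each group, single libraries were not tested as standing apart.

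Among membrane proteins the change (difference with TNF minus difference without, log2) was 1.04 for Npc1, 0.87 for Mcoln1, 0.33 for Cd68, 0.17 for Cd63, 0.15 for Lamp1 and -0.27 for Lamp2. Among glycan hydrolases it was 0.94 for Gaa, 0.74 for Gusb, 0.51 for Hexa, 0.40 for Naglu and 0.40 for Neu1. Among genes of lipid breakdown it was 0.66 for Psap, 0.35 for Lipa, 0.35 for Smpd1, 0.34 for Asah1 and -1.17 for Npc2. Among proteases and ceroid lipofuscinosis proteins it was 0.55 for Tpp1, 0.45 for Lgmn and -0.51 for Grn. The factors stood at 0.63 for Tfeb, 0.13 for Tfe3 and -0.38 for Mitf. V-ATPase subunits stood at 1.07 for Atp6v0a1, 1.03 for Atp6v0d2, 0.68 for Atp6v0d1, 0.33 for Atp6v1a and 0.17 for Atp6ap1. Of these calls, those of Cd63, Tfe3 and Lamp2 were lost under at least 1 alternative.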

How the results depend on the processing

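Scaling to total reads moved most values, and the cause was not tested. Under it, 9 genes were higher without TNF and 6 lower with TNF. The sign turned without TNF for Cd68 (0.0005), Naglu (0.12), Lipa (0.0161), Gaa (0.04) and Atp6v1b2 (0.05), and with TNF for Hexa (0.23), Glb1 (0.29), Asah1 (0.0377), Lgmn (0.13), Tfeb (0.14), Tfe3 (0.13), Atp6v1b2 (0.16) and Atp6ap1 (0.24). The change of the genotype difference turned for Gla (0.17), Gm2a (0.18), Scarb2 (0.08), Glb1 (0.15) and Atp6v1b2 (0.11). Leaving out single libraries gave 2 to 6 genes higher without TNF. With scaling factors over all 12 libraries, the median TNF ratio was -0.35 in Klf6-deleted and -0.61 in Lyz2cre cells, beside -0.02 and -0.05 over all genes. With the replicate number as a block, 5 genes were higher and 25 lower without TNF, 17 higher and 13 lower with TNF, and 23 and 4 for the change. Between the genotypes, deviations of libraries with the same number were little related (r = 0.152, -0.0378 and 0.158 without TNF, and -0.0209, -0.0123 and -0.0295 with TNF). Libraries with different numbers gave r from -0.230 to 0.114 without TNF and from -0.0015 to 0.0224 with TNF. The numbers were not taken as pairs. Libraries of 1 genotype with and without TNF were not compared in this way, so a pairing there was not tested. Each gene of the list had at least 347 reads in every library, and the part of depth in these results was not tested.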
